A study of Eublepharis macularius with 18 samples.

Results

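The comparison is between the ventricle of leopard geckos (Eublepharis macularius, a lizard) 100 days post injury (dpi) and the ventricle of other geckos 30 dpi. Each group had 3 animals with 1 library of poly-A RNA apiece (bulk RNA sequencing), out of 18 animals in 6 groups. All 6 animals of this comparison had been cryoinjured: a metal probe cooled in liquid nitrogen was held to the ventricle through a tear in the pericardium, and tissue beside the injury was taken. The other 4 groups were injured animals at 3 and 14 dpi, sham-operated animals and controls. Strain, age and sex were not given, and no uninjured animals of matched age were labelled for either time, so time after injury and time in the animals' lives cannot be told apart. Of 12376 rows in the table, 9823 averaged 10 normalized counts or more in these 6 libraries and were tested. Normalized counts are reads divided by a factor for each library, and how these factors were made is not given. The rows just inside that minimum were Padi3 at 10.007 and Nsun7 at 10.036, and those just outside were Notum at 9.96 and Steap4 at 9.95. Of the 2553 rows left out, 777 were at 0 in all 6 libraries.

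After an injury to the heart, inflammatory cells and fibroblasts enter the wound, a provisional matrix is laid down, and matrix, vessels and muscle are then remodelled over weeks to months. Complement is a set of proteases and binding proteins that marks debris and microbes for uptake. Major histocompatibility (MHC) class II proteins present peptides to T cells. Tenascin C, the product of Tnc, belongs to the matrix proteins made for a time in healing tissue. Heart muscle cells anchor their contractile filaments at Z-discs, M-bands and costameres, and burn fatty acids, glucose and stored glycogen.

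The 100 dpi libraries held 16892131, 18662094 and 34898541 reads, and the 30 dpi libraries held 15710590, 14198683 and 14815639. The third 100 dpi library was thus the deepest of the 18. Ventricular muscle genes were abundant in both groups: Myh6, a cardiac myosin heavy chain, had 315800, 269800 and 359300 normalized counts at 100 dpi, against 325600, 386000 and 301300 at 30 dpi. The row for Myl2, the regulatory light chain of mammalian ventricle, was at 0 in all 6. The row Lars2, which is very abundant for the mitochondrial tRNA synthetase it is named after and may count another gecko transcript, took 7.58, 6.91 and 7.23% of the reads at 100 dpi and 8.25, 11 and 8.77% at 30 dpi. Since the tissue was taken whole, fewer cells of a type and less RNA per cell cannot be told apart. Rows carry mouse gene names, since the submitters annotated the gecko transcripts with the mouse gene annotation. Rows of families with near-identical members, such as C1rb, H2-Ab1, H2-Eb1, Psmb8, Gsta4 and the actins Acta1, Actc1 and Acta2, are therefore uncertain as to which family member they count.

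Between 30 and 100 dpi, 78 genes were called, 30 higher and 48 lower at 100 dpi, at an adjusted p under 0.05 by limma. These were 0.794% of the 9823 tested rows, or 0.305% called higher and 0.489% called lower. The genes called higher included proteases of the first complement component, an MHC class II chain, myeloperoxidase and the muscle protein Csrp3. Those called lower included tenascin C, the telomerase gene Tert, scaffold proteins of the sarcomere and enzymes of glycogen and pyruvate use. Of the called genes, 12 of the 30 higher and 8 of the 48 lower ones differed by more than 2-fold. The log2 differences of all 9823 rows, 100 dpi minus 30 dpi on the log2(normalized count + 1) scale, had a median of 0.02, with quartiles at -0.17 and 0.21. The 100 dpi values lay wholly above the 30 dpi values in 9.04% of the tested rows and wholly below them in 9.37%, and all 78 called genes were among these.

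The calls depended on single libraries. With the first 30 dpi library left out 359 genes were called, and with the first 100 dpi library left out 44. Without the second 30 dpi library 1 gene was called, and without the third 30 dpi, the second 100 dpi or the third 100 dpi library there was none at the same threshold by limma. A fit of the 6 libraries alone called 0, against 1219 genes at an unadjusted p under 0.05. In the main model 1582 rows passed an unadjusted p under 0.05, 767 higher and 815 lower. On the recovered reads edgeR called 87 genes and DESeq2 380, the latter 149 higher and 231 lower. The counts given for lists below stand against these. When the trend of each library on transcript length was removed, 19 genes were called higher and 49 lower, 27.9% higher against 38.5% in the main model. Of the 78 calls 54 were among these, 15 of the 30 higher and 39 of the 48 lower. The calls lost included H2-Ab1 (adjusted p 0.056 by limma in that fit), Csrp3 (0.0511), Gpx7 (0.0628), Rgcc (0.0562), Raver2 (0.0594), Stmn1 (0.0501), Svil (0.0973) and Phka2 (0.0708). The sign of the difference of the called genes was the same in each of these fits. As the groups did not overlap for any called gene, leaving out a library or fitting the 6 alone could not change it.

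**Figure D1:**
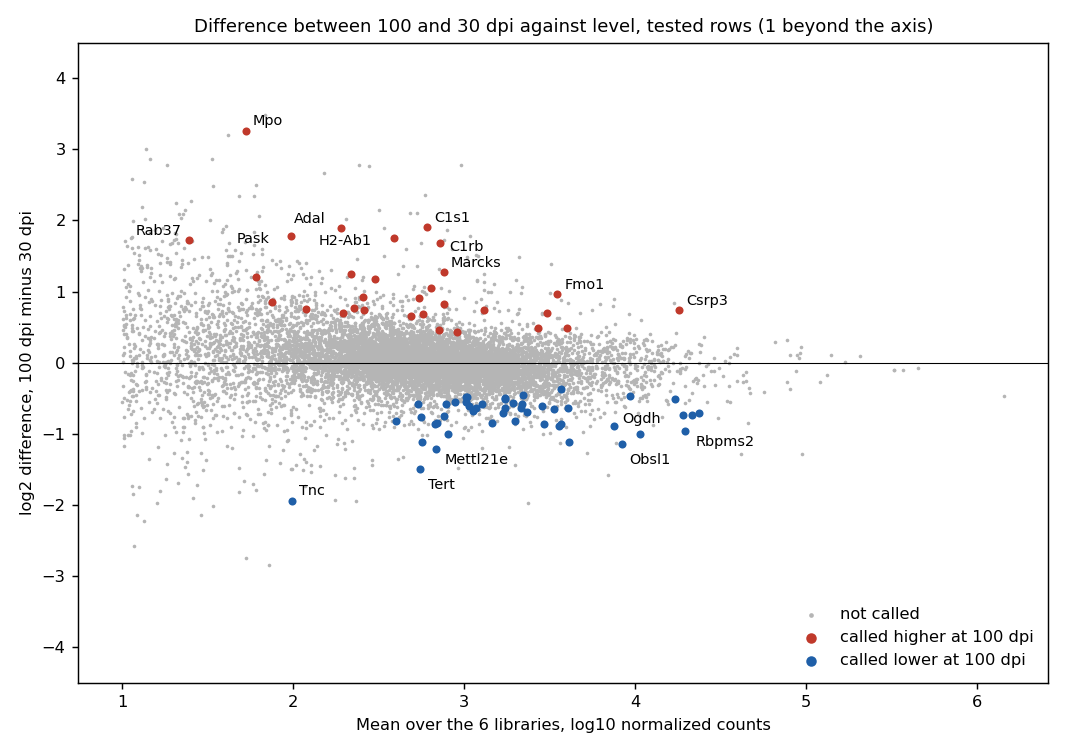
The log2 difference, 100 dpi minus 30 dpi, of each tested row is plotted against the log10 of its mean normalized count over the 6 libraries. Red points are the 30 genes called higher at 100 dpi and blue points the 48 called lower; Mpo (3.26) is the largest called difference upwards and Tnc (-1.94) downwards, and 1 row, not called, lies beyond the axis.

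Complement genes were among the genes called higher. C1rb, the row for a C1r protease that starts the classical complement pathway, had 803, 1483 and 1031 normalized counts in the 100 dpi libraries, against 350, 343 and 310 in the 30 dpi libraries. The lowest 100 dpi library held more than any 30 dpi library, by a wide margin. C1rb averaged 641 in controls, 723 in sham animals, 809 at 3 dpi and 523 at 14 dpi. Its 30 dpi mean, 334, was below all of these and its 100 dpi mean, 1106, was above them, while the first 100 dpi library was near the 3 dpi mean. The log2 difference was 1.68 ± 0.24 (SE), 3.20-fold, with an adjusted p of 0.0285 by limma. C1s1, the protease that C1r activates, had 452, 928 and 1535 at 100 dpi, against 299, 219 and 185 at 30 dpi. Its libraries spread more at 100 dpi, and its log2 difference was 1.91 ± 0.34, with an adjusted p of 0.0352. C1qc, a chain of the third component of that complex, was not called: it had 440, 811 and 478 normalized counts at 100 dpi and 478, 485 and 260 at 30 dpi. These 3 rows were grouped after their values were seen. Among the 13 tested genes of the complement and coagulation list C1s1 was called higher and none lower, and the list median was 0.17. C3, the central component, had 2036, 6055 and 18030 at 100 dpi against 2558, 5839 and 2691 at 30 dpi, so its high level came from the third 100 dpi library and the groups overlapped. C8a, of the terminal complex, was not called and had a difference of -0.91 ± 0.42, and F8, coagulation factor VIII, of 0.17 ± 0.44.

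Mpo encodes myeloperoxidase, an enzyme of neutrophil and monocyte granules. It had 22.0, 171 and 103 normalized counts at 100 dpi, against 8.04, 6.59 and 5.72 at 30 dpi, where 3 reads correspond to between 3.43 and 3.95 normalized counts. Each 100 dpi library was above each 30 dpi library, but the 100 dpi libraries differed among themselves, and the 30 dpi level rested on few reads. Mpo averaged 19.6 in controls, 14.1 in sham animals, 21.3 at 3 dpi and 23.2 at 14 dpi. The 30 dpi mean, 6.78, was below all of these, and the first 100 dpi library was near the control mean. The log2 difference was 3.26 ± 0.63 with an adjusted p of 0.0352. All 5 tested genes of the granulocyte and mast cell list had positive differences, with Mpo alone called. Their summed level ranged between 549.5 and 686 at 100 dpi and between 255 and 550 at 30 dpi. Cpa3, a mast cell protease, had 176, 104 and 137 at 100 dpi, against 64.3, 98.85 and 74.3 at 30 dpi, without passing the test (difference 0.79 ± 0.37). Gata2, a transcription factor of blood and endothelium, had a difference of 0.23 ± 0.36.

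H2-Ab1, the row for an MHC class II beta chain, had 302, 844 and 693 normalized counts at 100 dpi, against 171, 185 and 145 at 30 dpi. The log2 difference was 1.75 ± 0.38 with an adjusted p of 0.0474, and 0.056 with the length trend removed. All 8 tested genes of the antigen presentation list had positive differences, with a median of 1.49 against 0.02 over all tested rows. H2-Ab1 was the one called by limma, against 0.305% of all tested rows called higher. An unadjusted p under 0.05 was passed by 6 of the 8, all higher, against 767 higher among all 9823 rows. H2-Eb1, a second class II beta row, had 715, 2458 and 2166 at 100 dpi, against 589, 622 and 445 at 30 dpi (difference 1.51 ± 0.42, adjusted p 0.109). Psmb8, a subunit of the immunoproteasome, had 335, 792 and 451 at 100 dpi, against 186, 60.6 and 200 at 30 dpi (difference 1.90 ± 0.56, adjusted p 0.129). In both rows the first 100 dpi library was the lowest of its group and still above every 30 dpi library. Tap2, a chain of the transporter that brings peptides to class I molecules, had 111, 515 and 461 at 100 dpi, against 110, 89.6 and 125 at 30 dpi, and Erap1, the peptide-trimming protease, had a difference of 0.53 ± 0.21. Taken as a list median per library, the deviation from the mean of the 6 libraries was -0.17, 1.25 and 1.00 at 100 dpi, against -0.49, -0.65 and -0.43 at 30 dpi. Without the first 100 dpi library 4 of the 8 were called and the list median was 2.07. In that fit 37 of all 9823 rows were called higher and 7 lower. Without the second or the third 100 dpi library, which held the high levels of this list, 0 genes were called, in this list or elsewhere.

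The interferon response list had a median difference of 0.99 over 13 tested genes, 11 of them positive. None was called by limma or edgeR, 6 passed an unadjusted p under 0.05, all higher, and DESeq2 called 5. Among all 9823 rows 767 were higher at that unadjusted p, and DESeq2 called 149 higher and 231 lower. Irf1, an interferon-induced transcription factor, had 211, 1723 and 762 normalized counts at 100 dpi, against 186, 105 and 175 at 30 dpi. Mx2, an antiviral GTPase, had 644, 1719 and 3206 at 100 dpi, against 540, 432 and 678 at 30 dpi. For Mx2 the first 100 dpi library lay among the 30 dpi values, whereas the second and the third were above them. Across the list the median deviation was -0.40, 0.57 and 1.47 in the 100 dpi libraries, against -0.48, -0.60 and -0.34 in the 30 dpi libraries, so the first 100 dpi library lay within the 30 dpi range. Without it 4 of the 13 were called, against 44 of all 9823 rows. Without the third 100 dpi library none was and the median was 0.45.

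Of 34 macrophage and monocyte markers, 14 had a row and 12 were tested. None was called by limma or edgeR, 5 passed an unadjusted p under 0.05, all higher, and DESeq2 called 4. The counts over all 9823 rows were 767 higher at that unadjusted p, and 149 higher and 231 lower by DESeq2. Of the 12 differences 8 were positive and 4 negative, and the median was 0.43. The 100 dpi libraries lay wholly above the 30 dpi libraries in 2 of the 12, 16.7%, and wholly below them in 2, also 16.7%. Over all tested rows these shares were 9.04% and 9.37%. Spi1, the transcription factor PU.1 of the myeloid lineage, had 38.2, 84.85 and 71.3 normalized counts at 100 dpi, against 12.6, 15.8 and 18.3 at 30 dpi (difference 1.93 ± 0.48, adjusted p 0.0769). Csf1r, the receptor for the macrophage growth factor, had 266.5, 527 and 554 at 100 dpi, against 230, 241 and 192 at 30 dpi (difference 0.95 ± 0.39, adjusted p 0.244). Spi1 and Csf1r were the 2 markers wholly above. Itgb2, the leukocyte integrin beta chain, had 67.8, 239 and 249 at 100 dpi, against 75.8, 77.8 and 54.9 at 30 dpi, so its first 100 dpi library again lay among the 30 dpi values. Lgmn, a lysosomal protease, was 1 of the 2 wholly below, with 1280, 1194 and 1348 at 100 dpi, against 1631, 1895 and 1361 at 30 dpi (difference -0.34 ± 0.20). C1qc had a difference of 0.50 ± 0.32. The summed level of the 12 markers ranged from 3266 to 4594 at 100 dpi and overlapped that at 30 dpi, 3644 to 4211. Whether the class II and interferon differences followed the number of such cells was not tested.

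Lymphocyte markers were sparse. Of 30 T and natural killer cell markers 2 were tested, and none was called by limma, edgeR or DESeq2, while 1 passed an unadjusted p under 0.05. That was Lck, a kinase of T cell receptor signalling, which had 20.1, 39.3 and 26.0 normalized counts at 100 dpi, against 12.6, 10.5 and 11.4 at 30 dpi. Of 20 B and plasma cell markers 1 was tested, Ebf1, which is also made in vessel wall cells and had a difference of 0.19 ± 0.33. In the chemokine and cytokine list 7 of 52 genes were tested and none was called by limma, edgeR or DESeq2, with 1 higher and 1 lower at an unadjusted p under 0.05. Ccr2, a receptor of inflammatory monocytes, had 61.1, 55.4 and 76.2 at 100 dpi, against 29.9, 13.2 and 26.3 at 30 dpi, without overlap (difference 1.5 ± 0.47). Ccr2 averaged 119 in controls, 47.0 in sham animals, 58.0 at 3 dpi and 103 at 14 dpi. Its mean was thus lowest at 30 dpi (23.1), and the 100 dpi mean (64.2) was below that of controls. Ackr3, a scavenging chemokine receptor, had a difference of -1.58 ± 0.60, and Il6st, the receptor chain shared by the interleukin-6 family, of 0.03 ± 0.20.

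Genes of pattern recognition and NF-kappa-B signalling were positive in 16 of 22 cases, with a median of 0.31. None was called by limma or edgeR, 6 passed an unadjusted p under 0.05, all higher, and DESeq2 called 2. Of all 9823 rows 767 were higher at that unadjusted p, and 149 were called higher and 231 lower by DESeq2. In 5 of the 22, 22.7%, the 100 dpi libraries lay wholly above the 30 dpi ones, and in none wholly below. Over all tested rows the shares were 9.04% above and 9.37% below. Nod1, a sensor of bacterial cell walls, had 415.5, 467 and 494 normalized counts at 100 dpi, against 308, 282 and 293 at 30 dpi (difference 0.64 ± 0.17, adjusted p 0.0988). Tlr2, a receptor for bacterial lipoproteins, had 98.4, 108 and 91.1 at 100 dpi, against 34.5, 38.2 and 25.2 at 30 dpi (difference 1.59 ± 0.49, adjusted p 0.14). Unlike the interferon genes, both were at a similar level in the 3 libraries of 100 dpi. Chuk, a kinase of the pathway, had a difference of -0.22 ± 0.11. Unc93b1, a chaperone that carries Toll-like receptors to endosomes, was called higher outside this list, with 644, 784 and 693 at 100 dpi, against 441, 444 and 425 at 30 dpi (difference 0.69 ± 0.11, adjusted p 0.0285).

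**Figure D2:**
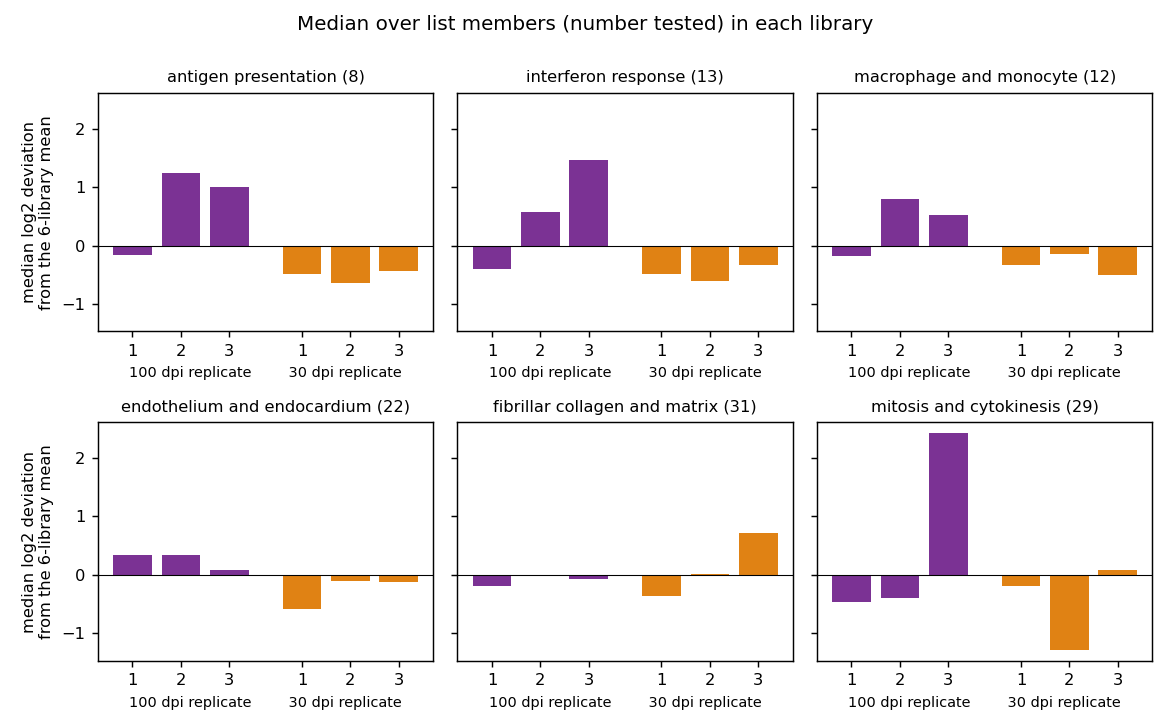
Each bar is the median, over the tested members of a list, of the log2 deviation of 1 library from the mean of the 6 libraries, with the 3 libraries of 100 dpi in purple and those of 30 dpi in orange. For antigen presentation the second and the third 100 dpi libraries (1.25 and 1.00) stand above the first (-0.17), mitosis rests on the third 100 dpi library (2.42), and the third 30 dpi library is high for fibrillar matrix (0.71).

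Endothelial genes leaned towards 100 dpi without any call by limma or edgeR. All 22 tested genes of the endothelium and endocardium list had positive differences, from 0.09 to 1.81, with a median of 0.49. In 8 of them, 36.4%, the 100 dpi libraries lay wholly above the 30 dpi libraries, against 9.04% of all tested rows. An unadjusted p under 0.05 was passed by 8, all higher, against 767 higher among all 9823 rows. DESeq2 called 1. Cldn5, the tight junction protein of endothelium, had 35.3, 49.1 and 15.9 normalized counts at 100 dpi, against 9.19, 7.91 and 6.86 at 30 dpi (difference 1.81 ± 0.49, adjusted p 0.106). Nos3, the endothelial nitric oxide synthase, had 1570, 1954 and 1370 at 100 dpi, against 553.5, 755 and 918 at 30 dpi (difference 1.15 ± 0.41, adjusted p 0.187). Tie1, a receptor kinase of endothelium, had 889, 881 and 803 at 100 dpi, against 598, 568 and 675 at 30 dpi (difference 0.48 ± 0.16, adjusted p 0.171). The groups did not overlap for any of these 3 genes. The 30 dpi level of Cldn5 rested on few reads, as 3 reads correspond there to between 3.43 and 3.95 normalized counts. Cldn5 averaged 34.9 in controls, 28.5 in sham animals, 43.1 at 3 dpi and 41.0 at 14 dpi. Its mean was thus lowest at 30 dpi, and 100 dpi (33.5) was near controls. The abundant receptors Kdr, for VEGF, and S1pr1, for sphingosine-1-phosphate, had differences of 0.37 ± 0.21 and 0.43 ± 0.24. The summed level of the list ranged between 25990 and 34010 at 100 dpi and between 20610 and 23890 at 30 dpi. With single libraries left out, between 19 and 22 of the 22 differences stayed positive, and the lowest number came without the first 30 dpi library.

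Other vascular lists were mixed. In the angiogenic list 22 of 33 differences were positive, with a median of 0.25, and none was called by limma or edgeR. At an unadjusted p under 0.05, 5 were higher and 4 lower, and DESeq2 called 2 lower. Angpt1, the ligand that activates Tek, had 2519, 2418 and 2924 normalized counts at 100 dpi, against 1233, 1789 and 1687 at 30 dpi (difference 0.75 ± 0.25, adjusted p 0.161). Fgf2, a growth factor for endothelium and fibroblasts, had 314, 291 and 389.5 at 100 dpi, against 542, 857 and 469 at 30 dpi (difference -0.87 ± 0.25, adjusted p 0.122). Hif1a, the oxygen-regulated transcription factor, chosen after its values were seen, had 3069, 4350 and 2688 at 100 dpi, against 5345, 7553 and 6685 at 30 dpi (difference -0.97 ± 0.30, adjusted p 0.14). In these 3 genes the groups did not overlap, in the direction of the sign. Epas1, a related factor, had a difference of -0.32 ± 0.16. None of 18 arterial and venous genes and none of 12 lymphatic genes was called by limma, edgeR or DESeq2, with 2 and 0 at an unadjusted p under 0.05. Gja5, a gap junction protein of arterial endothelium and conduction tissue, had a difference of 0.57 ± 0.23, and Notch1 one of -0.23 ± 0.20. Among lymphatic genes Foxc1 stood at 0.41 ± 0.23 and Prox1, which heart muscle also expresses, at -0.51 ± 0.26. Of 18 smooth muscle and 7 pericyte genes none was called by limma or edgeR, with 4 and 2 at an unadjusted p under 0.05, and DESeq2 called 1 smooth muscle gene lower. Srf, a transcription factor of muscle and cytoskeletal genes, had 2617, 2918 and 2536 at 100 dpi, against 4723, 4809 and 4426 at 30 dpi (difference -0.79 ± 0.22, adjusted p 0.107). Mylk, the myosin light chain kinase, stood at 0.56 ± 0.25, and the pericyte genes Kcnj8 at -0.75 ± 0.29 and Anpep at 0.36 ± 0.20.

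Of the matrix genes 1 was called. Tnc had 43.9, 18.8 and 68.5 normalized counts at 100 dpi, against 125, 165 and 166 at 30 dpi. All 3 libraries of 100 dpi were lower than all 3 of 30 dpi, and the log2 difference was -1.94 ± 0.39, 3.84-fold lower, with an adjusted p of 0.0417 by limma. In the other groups Tnc averaged 133 ± 56.1 in controls, 88.0 ± 32.0 in sham animals, 361 ± 73.5 at 3 dpi and 624.5 ± 120 at 14 dpi (SD, n = 3 each). The 100 dpi mean, 43.7 ± 24.8, was thus below that of controls, and the 30 dpi mean, 152 ± 23.2, was near it. The other 9 tested genes of the matricellular list were not called. Among them Ccn2, a growth factor-binding matrix protein, had 12660, 6528 and 8997 at 100 dpi, against 3797, 6860 and 5502 at 30 dpi, and the groups overlapped. Sparc, a collagen-binding protein, was nearly level, with a difference of 0.05 ± 0.15.

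Collagens and their partners showed no common direction. Of 31 tested genes of the fibrillar matrix list none was called by limma or edgeR, 14 were positive and 17 negative, and the median was -0.09. At an unadjusted p under 0.05, 4 were higher and 3 lower, and DESeq2 called 1 lower. Eln, elastin, had 2570, 2791 and 1955 normalized counts at 100 dpi, against 3159, 3727 and 6410 at 30 dpi (difference -0.81 ± 0.27, adjusted p 0.157). Col8a2, a short-chain collagen, had 1143, 1584 and 1805 at 100 dpi, against 637, 1045 and 821 at 30 dpi (difference 0.86 ± 0.28, adjusted p 0.15). The groups did not overlap for either gene. The main fibrillar collagens were highest in 1 animal of 30 dpi. Col1a1 had 3369, 4226 and 3391 at 100 dpi, against 2437, 5704 and 11480 at 30 dpi. Col3a1 had 8756, 20920 and 15660 at 100 dpi, against 11220, 21930 and 38100 at 30 dpi. For both genes the groups overlapped, and the third 30 dpi library held the highest value. Without that library the median of the list was 0.15, and 17 of 31 differences were positive.

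The basement membrane list was negative in 14 of 19 genes, with a median of -0.27 (-0.10 without the third 30 dpi library) and no call by limma or edgeR. At an unadjusted p under 0.05, 3 were lower and 0 higher, and DESeq2 called 1 lower. Col4a1, a chain of the main basement membrane collagen, had 5769, 7743 and 6940 normalized counts at 100 dpi, against 8135, 9978 and 10980 at 30 dpi, without overlap (difference -0.51 ± 0.15, adjusted p 0.12). Lama4, a laminin chain of vessels, and Hspg2, perlecan, had differences of 0.26 ± 0.18 and 0.24 ± 0.30. Of the 22 genes of collagen processing none was called by limma, edgeR or DESeq2, with 2 higher and 5 lower at an unadjusted p under 0.05. P3h3, a collagen prolyl hydroxylase, stood at 0.52 ± 0.16 and Fkbp10, a collagen chaperone, at -0.38 ± 0.12. Of 27 matrix proteases and inhibitors none was called by limma or edgeR, with 2 higher and 3 lower at an unadjusted p under 0.05 and 1 called higher by DESeq2. Ctss, a cathepsin of antigen-presenting cells, had 280, 1141 and 557 at 100 dpi, against 256, 183 and 224 at 30 dpi (difference 1.36 ± 0.51, adjusted p 0.212). Mmp15, a membrane-bound protease, had a difference of -0.42 ± 0.14. Of 35 genes of TGF-beta and BMP signalling none was called by limma or edgeR, with 3 higher and 5 lower at an unadjusted p under 0.05 and 1 called lower by DESeq2. Tgfb3, a ligand, had 423, 401 and 588 at 100 dpi, against 216, 397 and 282 at 30 dpi, without overlap (difference 0.68 ± 0.22, adjusted p 0.156). Smad7, an inhibitor of the pathway, had 591, 452 and 409 at 100 dpi, against 1139, 776 and 663 at 30 dpi, also without overlap (difference -0.81 ± 0.24, adjusted p 0.136).

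Fibroblast and epicardial markers were tested in 12 and 9 cases and none was called by limma or edgeR. At an unadjusted p under 0.05, 3 fibroblast genes were higher and 1 lower, and 2 epicardial genes were higher and 1 lower. DESeq2 called 2 epicardial genes higher. Of the fibroblast differences 8 were positive and 4 negative, and of the epicardial ones 5 and 4. The 100 dpi libraries lay wholly above the 30 dpi libraries in 3 fibroblast genes, 25%, and in 3 epicardial genes, 33.3%. They lay wholly below in 0 of either list, against 9.04% above and 9.37% below over all tested rows. Aldh1a1, an enzyme of retinoic acid synthesis, had 1568, 1827 and 2697 normalized counts at 100 dpi, against 634, 1165 and 1030 at 30 dpi (difference 1.11 ± 0.27, adjusted p 0.0764). Clu, a secreted chaperone made by many tissues, had 7078, 11500 and 10730 at 100 dpi, against 5167, 5877 and 4442 at 30 dpi (difference 0.90 ± 0.22, adjusted p 0.0776). Both were higher in each 100 dpi library than in any 30 dpi library. Dcn, decorin, had a difference of 0.43 ± 0.15, and Pdgfra, the receptor that marks fibroblasts, of -0.81 ± 0.26. Tbx18, an epicardial transcription factor, stood at -0.76 ± 0.28. The summed level of the fibroblast list was lower at 100 dpi, 22570 to 31250, than at 30 dpi, 33570 to 39190, while the median difference of its genes was 0.33. Gsn, the actin-severing gelsolin, had the most negative difference of the list, -0.88 ± 0.43. It is an abundant member and weighs on the sum, with 12650, 7158 and 6173 at 100 dpi, against 19620, 22130 and 8055 at 30 dpi. In the third 30 dpi library Gsn was within the 100 dpi range. There Col1a1, another member of the list, had 11480, against 3369, 4226 and 3391 at 100 dpi.

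**Figure D3:**
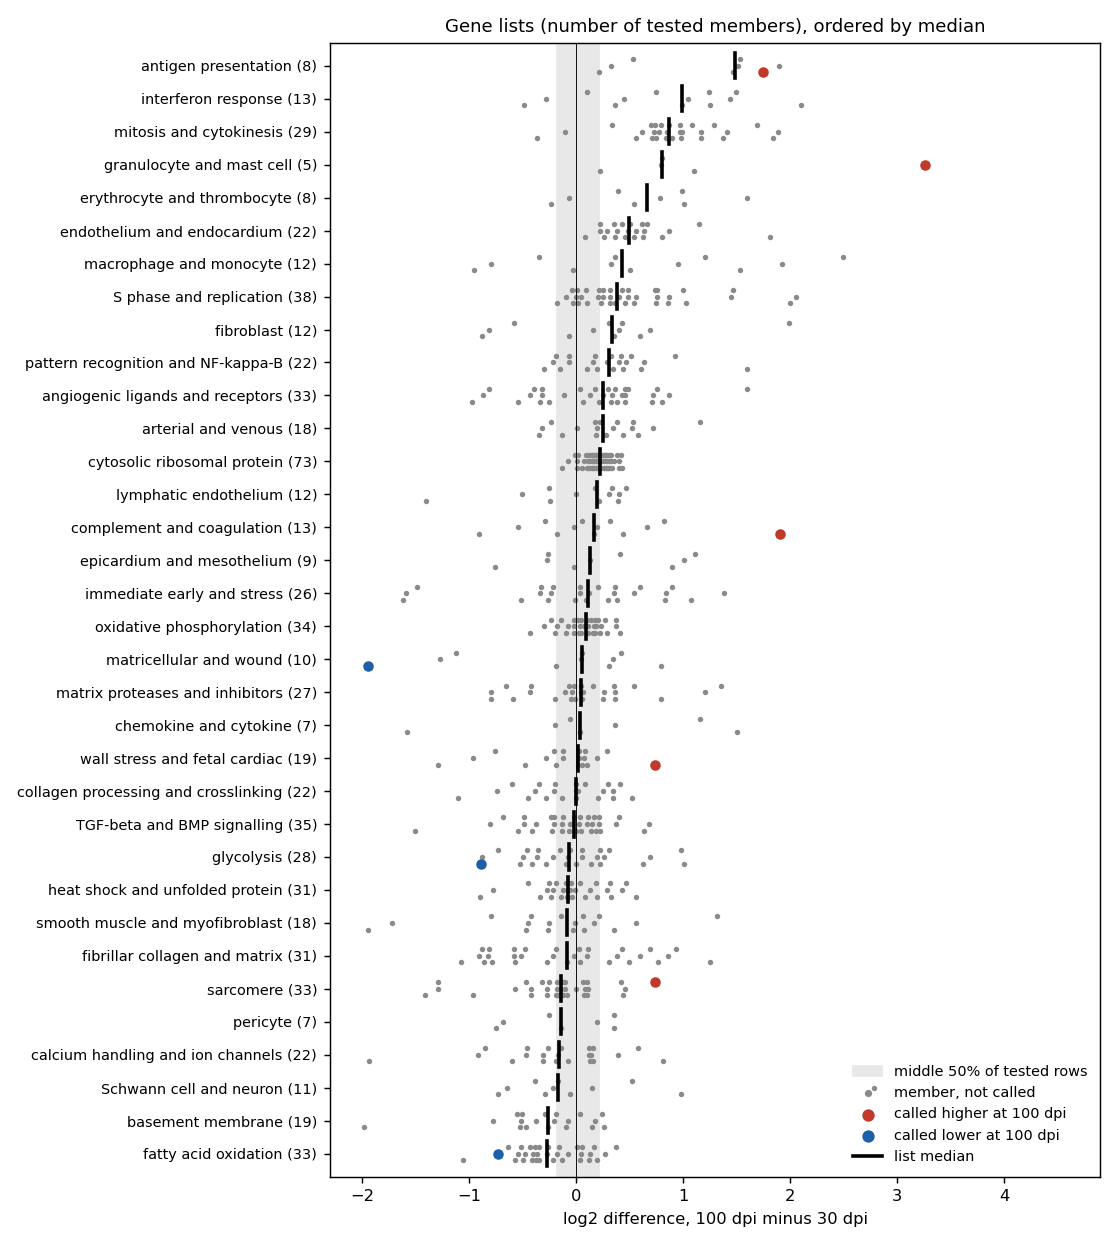
Each grey point is the log2 difference, 100 dpi minus 30 dpi, of 1 tested member of a list with at least 5 tested members, the lists drawn up after the calls left out, and the black bar is the median of the list; the shaded band lies between the quartiles of all tested rows. Red and blue points are called members. Of the lists shown, antigen presentation (median 1.49) and interferon response (0.99) lie highest, all 22 endothelial genes are above 0, and fatty acid oxidation (-0.27) and basement membrane (-0.27) lie lowest.

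Several muscle scaffold genes were called. Csrp3, muscle LIM protein of the Z-disc, was the sole called member of the sarcomere list. It had 17830, 23150 and 27060 normalized counts at 100 dpi, against 15110, 13860 and 11510 at 30 dpi. Csrp3 averaged 22610 in controls, 19070 in sham animals, 23480 at 3 dpi and 19050 at 14 dpi. Its 100 dpi mean, 22680, was thus near that of controls, and its 30 dpi mean, 13490, was below all of these. The log2 difference was 0.74 ± 0.16 with an adjusted p of 0.0448, and 0.0511 with the length trend removed. Obsl1, an obscurin-like protein of the M-band, had 4671, 5783 and 5094 at 100 dpi, against 9294, 13710 and 11630 at 30 dpi. Its log2 difference was -1.14 ± 0.20, 2.21-fold lower, with an adjusted p of 0.0352. Svil, supervillin, an actin and membrane linker, was also called lower (-0.47 ± 0.10), but not with the length trend removed (adjusted p 0.0973). In a list of 39 costamere, M-band and actin scaffold genes drawn up after these values were seen, 31 were negative. In it 3 were called lower and Csrp3 higher, against 0.489% and 0.305% of all tested rows. As the list was made with the calls known, its count of calls tests nothing. Within that list Tln1, talin, chosen in the same way, had 6300, 6852 and 7188 at 100 dpi, against 7675, 13080 and 11140 at 30 dpi (difference -0.62 ± 0.15, adjusted p 0.0654).

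No gene of the contractile filaments was called, though the skeletal and cardiac actin rows had larger differences than the called scaffold genes. Of 33 tested genes of the sarcomere list 10 were positive and 23 negative, and the median was -0.14. Acta1, skeletal alpha-actin, which fetal and stressed mammalian hearts express, had 17620, 23190 and 32570 normalized counts at 100 dpi, against 56810, 67460 and 50410 at 30 dpi (difference -1.29 ± 0.37, adjusted p 0.123). Actc1, cardiac alpha-actin, chosen after its values were seen, had 35400, 52800 and 79680 at 100 dpi, against 112300, 168600 and 114900 at 30 dpi (difference -1.29 ± 0.46, adjusted p 0.192). Both actin rows were lower in every 100 dpi library, and in both the first 100 dpi library held the lowest level. Acta1 also spread widely among controls, with 47400, 19700 and 67940. Myh6 and Ttn, titin, had differences of -0.10 ± 0.22 and -0.18 ± 0.18. Of 22 genes of calcium handling and ion channels none was called by limma or edgeR, with 1 higher and 4 lower at an unadjusted p under 0.05 and 1 called lower by DESeq2. Atp2a2, the calcium pump of the sarcoplasmic reticulum, had 33520, 31780 and 31550 at 100 dpi, against 54010, 63330 and 58010 at 30 dpi (difference -0.85 ± 0.26, adjusted p 0.135). The libraries of each group lay close together for this gene, and the groups did not overlap. The controls, however, had 40890, 21560 and 55330, from below the 100 dpi libraries to within the 30 dpi range. Slc8a1, the sodium-calcium exchanger, had a difference of -0.26 ± 0.16. Csrp3 was also the one gene called among 19 of the wall stress and fetal cardiac list, of which 10 were positive and 9 negative. In 5 of the 19, 26.3%, the 100 dpi libraries lay wholly below the 30 dpi libraries, against 9.37% of all tested rows. Csrp3 was the 1 wholly above, 5.26%, against 9.04% of all tested rows. At an unadjusted p under 0.05, 4 were lower and 1 higher. In that list Nkx2-5, a cardiac transcription factor named here after its values were seen, had 2035, 1787 and 1994 at 100 dpi, against 2827, 2784 and 2502 at 30 dpi, without overlap or a call (difference -0.48 ± 0.15, adjusted p 0.142).

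Called genes of glycogen and pyruvate use were lower at 100 dpi. Gys1, muscle glycogen synthase, had 2171, 2476 and 2880 normalized counts at 100 dpi, against 4723, 5376 and 3840 at 30 dpi. The log2 difference was -0.88 ± 0.17, 1.85-fold lower, with an adjusted p of 0.0369. Subunits of phosphorylase kinase, the kinase that switches on glycogen breakdown, were called lower as well. The catalytic subunit Phkg2 had 249, 293 and 319 at 100 dpi, against 451, 527 and 543 at 30 dpi (difference -0.82 ± 0.16, adjusted p 0.0352). The regulatory subunit Phka1 had 419, 400.1 and 413 at 100 dpi, against 534, 755 and 830 at 30 dpi (difference -0.76 ± 0.17, adjusted p 0.0485). The second regulatory subunit, Phka2, had 539.7, 539.5 and 634 at 100 dpi, against 940.5, 1028 and 902 at 30 dpi (difference -0.75 ± 0.15, adjusted p 0.0417, and 0.0708 with the length trend removed). In a list of 19 tested glycogen genes drawn up after these calls were seen, 15 were negative and the median was -0.37. In it 4 were called lower, against 0.489% of all tested rows. As the list was made with the calls known, its count of calls tests nothing. Pygb, a glycogen phosphorylase chosen in the same way, had 3978, 2924 and 4445 at 100 dpi, against 7045, 5248 and 8839 at 30 dpi, without overlap (difference -0.89 ± 0.26, adjusted p 0.131).

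Ogdh, the first subunit of the oxoglutarate dehydrogenase complex of the citric acid cycle, had 7842, 7669 and 5779 normalized counts at 100 dpi, against 11960, 16490 and 14220 at 30 dpi (difference -1.0 ± 0.19, adjusted p 0.0352). Pdk2, a kinase that switches off pyruvate dehydrogenase, had 17550, 14980 and 15930 at 100 dpi, against 25830, 29910 and 24890 at 30 dpi (difference -0.73 ± 0.15, adjusted p 0.0431). Every 100 dpi library was below every 30 dpi library for both genes. Cs, citrate synthase, chosen after its values were seen, missed the threshold, with 9968, 9547 and 8986 at 100 dpi, against 11750, 15670 and 14060 at 30 dpi (difference -0.53 ± 0.13, adjusted p 0.079). In a list of 36 pyruvate and citric acid cycle genes drawn up after these calls were seen, 31 were negative, with a median of -0.12. Ogdh and Pdk2 were the 2 called, against 0.489% of all tested rows called lower. Both calls were known when the list was made, so this count tests nothing. Pdk2 was also the one called among 33 tested genes of the fatty acid oxidation list, of which 23 were negative with a median of -0.27. At an unadjusted p under 0.05 by limma, 7 of the 33 were lower and 0 higher. Over all 9823 rows 815 were lower and 767 higher. The 100 dpi libraries lay wholly below the 30 dpi libraries in 18.2% of this list, against 9.37% of all tested rows. Fabp3, the fatty acid-binding protein of heart, stood at 0.38 ± 0.21 and Acadvl, an acyl-CoA dehydrogenase, at -0.54 ± 0.23. Gys1 was the one called among 28 genes of the glycolysis list, whose median was -0.07, against 0.489% of all tested rows called lower. At the same unadjusted p, 8 of the 28 were lower and 1 higher. In 17.9% of this list the 100 dpi libraries lay wholly below and in 7.14% wholly above, against 9.37% and 9.04% of all tested rows. Ldha, a lactate dehydrogenase chain, stood at 0.98 ± 0.34 and Aldoa, an aldolase, at -0.41 ± 0.16. Of 34 genes of oxidative phosphorylation none was called by limma or edgeR, with 2 higher and 2 lower at an unadjusted p under 0.05 and 1 called lower by DESeq2, and the median was 0.09.

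**Figure D4:**
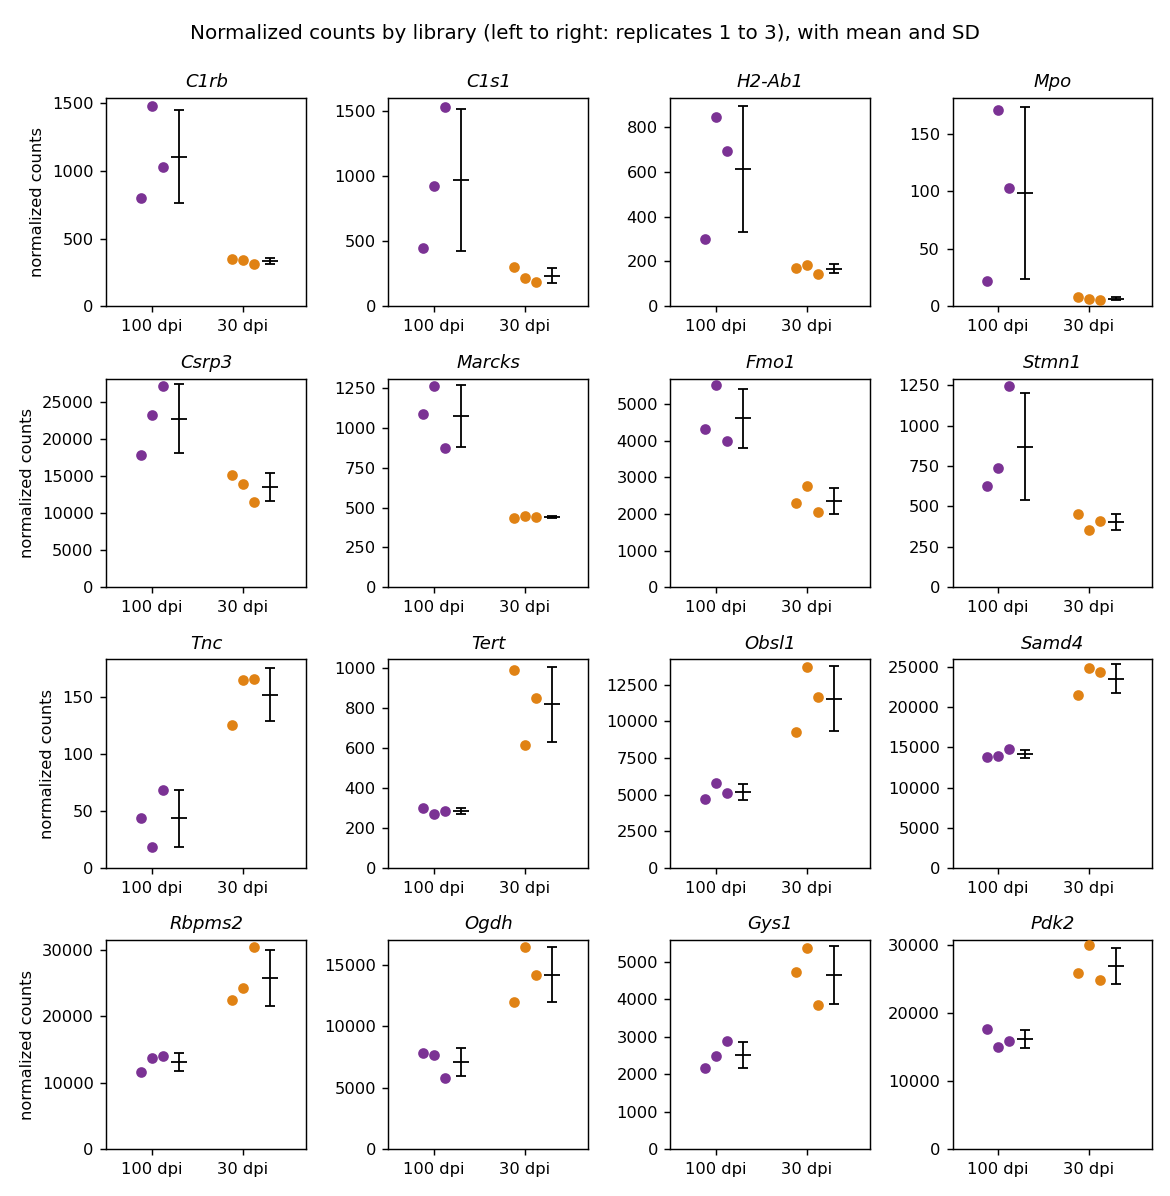
Normalized counts of 16 called genes in each library, the 3 libraries of 100 dpi at the left of each panel and the 3 of 30 dpi at the right, with the mean and SD beside them; axes start at 0. The libraries do not overlap in any panel, and the 100 dpi spread is wide for Mpo (22.0 to 171) and C1s1 (452 to 1535) and narrow for Tert (272 to 300).

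The lower calls with the smallest p were Tert and Rbpms2. Tert, the catalytic subunit of telomerase, had 299.9, 272 and 284 normalized counts at 100 dpi, against 991, 617 and 851 at 30 dpi (difference -1.49 ± 0.23, 2.81-fold lower, adjusted p 0.0285). Rbpms2, an RNA-binding protein of heart and smooth muscle, had 11630, 13760 and 14060 at 100 dpi, against 22510, 24250 and 30550 at 30 dpi (difference -0.96 ± 0.15, adjusted p 0.0285). The 100 dpi libraries were close together for both genes. Samd4, a repressor of translation, had 13820, 13970 and 14780 at 100 dpi, against 21480, 24800 and 24350 at 30 dpi (difference -0.73 ± 0.13). Of the others with the smallest p, the ubiquitin-related Rnf214 (-0.56) and Usp19 (-0.70), the membrane protein Nomo1 (-0.63), the mannose phosphate isomerase Mpi (-0.81) and the heme transporter Slc48a1 (-0.58) were called lower. Also called lower were Ahcyl2 (-0.45), the kinase Pak4 (-0.62), the mitochondrial protein Vwa8 (-0.69) and Dok7 (-0.85), which organises the neuromuscular synapse.

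Named after their values were seen, further lower calls were the triglyceride lipase Pnpla2 (-0.64), the retinaldehyde reductase Dhrs3 (-1.12), the adenylyl cyclase Adcy6 (-0.61), the initiation factor Eif4g1 (-0.86), the mitochondrial ion exchanger Letm1 (-0.59), the channel Asic4 (-1.11) and the methyltransferase Mettl21e (-1.22). Other lower calls, also named after the fact, were Tmem120b, Pla1a, Atg9a, Ankrd52, Kpna1, Zfr2, Abcd4, Mapk15, Micall1, Herpud2, Stau1, Sppl2b, Usp2, Tbc1d25, Pip4k2c, Inppl1, Ap2b1 and Rabgef1. Relative transcript length, taken from the ratio of normalized counts to FPKM, differed between the directions. Its median log2 value was -0.07 for the 30 genes called higher and 0.78 for the 48 called lower, against 0.11 over all tested rows. The part of transcript length in the calls was not tested beyond the fit with the length trend removed, given above.

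Among the higher calls outside the lists, Rab37, a small GTPase of secretory granules, had 49.7, 33.05 and 32.8 normalized counts at 100 dpi, against 9.19, 11.9 and 11.4 at 30 dpi (difference 1.72 ± 0.28, adjusted p 0.0285). Fmo1, a flavin monooxygenase, had 4328, 5523 and 3997 at 100 dpi, against 2294, 2751 and 2045 at 30 dpi (difference 0.96 ± 0.18, adjusted p 0.0352). Marcks, an actin-binding substrate of protein kinase C, had 1091, 1263 and 876 at 100 dpi, against 434, 447 and 441 at 30 dpi (difference 1.27 ± 0.25, adjusted p 0.0352). The 30 dpi libraries nearly coincided for Marcks. Others with the smallest p were the metabolic sensor kinase Pask (1.79), the adenosine deaminase-like Adal (1.89), the peroxidase Gpx7 of the endoplasmic reticulum (0.74), the inositol phosphate kinase Itpkb (0.74) and Trank1 (0.83). Rgcc, a cell cycle regulator induced by complement (1.25), the actin-binding Shroom2 (0.70) and the RNA-binding Raver2 (0.44) were also called higher. Named after their values were seen, Stmn1, which destabilises microtubules (1.05), the leukocyte protein Bin2 (0.85), the cyclooxygenase Ptgs1 (1.18), the tetraspanin Cd81 (0.49), the survival factor Mcl1 (0.49) and the glutathione transferase row Gsta4 (0.91) were called higher. The remaining higher calls, also named after the fact, were Ice2, Myo7b, Ap1s1, Pkd2l2, Ube2e1, Lrrc40 and Med20.

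Cell division genes were high in 1 animal of 100 dpi. Of 29 tested mitosis genes 27 were positive, with a median of 0.87, yet none was called by limma, edgeR or DESeq2 and 1 passed an unadjusted p under 0.05. Cdk1, the mitotic kinase, named here after its values were seen, had 15.3, 23.2 and 287 normalized counts at 100 dpi, against 54.0, 6.59 and 46.9 at 30 dpi. Plk1, a kinase of the spindle, had 135, 156 and 487 at 100 dpi, against 122, 54.0 and 161 at 30 dpi. In the other groups Plk1 had 134, 150 and 184 in controls, 133, 210 and 638 in sham animals, 103, 121 and 443 at 3 dpi and 491, 572 and 225 at 14 dpi. High single libraries of this gene were thus not particular to 100 dpi or to injured animals. The list median per library was -0.47, -0.40 and 2.42 at 100 dpi, against -0.19, -1.28 and 0.08 at 30 dpi. Without the third 100 dpi library, the deepest of the 18, 13 of 29 differences were positive and the median was -0.07. Racgap1, of the dividing cell's midbody, had the smallest p (difference 1.89 ± 0.81), and Prc1, of the same structure, the most negative value (-0.36 ± 0.30). Of 38 S phase genes 33 were positive. In 7 of them, 18.4%, the groups did not overlap, all with 100 dpi above, against 9.04% of all tested rows. None was called by limma, edgeR or DESeq2, and 3 passed an unadjusted p under 0.05. The S phase median was 0.39, and 0.19 without the third 100 dpi library. Pola2, a subunit of the primase complex, had 71.6, 75.9 and 80.02 at 100 dpi, against 44.8, 35.6 and 54.9 at 30 dpi (difference 0.76 ± 0.24, adjusted p 0.149), without overlap.

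Markers of blood and handling were also compared. Of 8 erythrocyte and thrombocyte genes none was called by limma, edgeR or DESeq2, with 1 higher and 1 lower at an unadjusted p under 0.05, and the median was 0.66. Nfe2, a factor of these lineages, had 26.75, 25.9 and 17.8 normalized counts at 100 dpi, against 9.19, 2.64 and 12.6 at 30 dpi. Hba-a1, an alpha-globin row, had 3242, 2749 and 1237 at 100 dpi, against 1712, 522 and 1576 at 30 dpi. Of 26 immediate early genes none was called by limma, edgeR or DESeq2, with 2 higher and 2 lower at an unadjusted p under 0.05. Jun, a component of AP-1, had 3813, 2188 and 2700 at 100 dpi, against 764, 1481 and 2146 at 30 dpi (difference 1.07 ± 0.32, adjusted p 0.133). Nr4a3, an orphan nuclear receptor, had 2799, 2562 and 4578 at 100 dpi, against 12720, 13950 and 4991 at 30 dpi (difference -1.59 ± 0.62). Of 31 heat shock and unfolded protein genes none was called by limma or edgeR, with 2 higher and 4 lower at an unadjusted p under 0.05 and 1 called lower by DESeq2. Of 73 cytosolic ribosomal proteins 70 were positive with a median of 0.22, and none was called by limma, edgeR or DESeq2, with 9 higher at an unadjusted p under 0.05. Per library the list median was 0.05, 0.23 and 0.06 at 100 dpi, against 0.31, -0.30 and -0.33 at 30 dpi. The first 30 dpi library was thus above every 100 dpi library, and the sign rested on the second and the third. With the length trend removed, the ribosomal median was 0.03. For the lists of Schwann cells and neurons, adipocytes and other tissues no member was called by limma, edgeR or DESeq2, with 0, 2 and 0 at an unadjusted p under 0.05.

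The other 4 groups showed where each level stood before. The control mean lay nearer the 100 dpi mean than the 30 dpi mean for 19 of the 30 genes called higher, 63.3%, and for 19 of the 48 called lower, 39.6%, against 49.1% of all tested rows. In the same order, these shares were 63.3%, 47.9% and 51.7% for the sham mean. They were 50%, 39.6% and 48.2% for the 3 dpi mean, and 70.0%, 54.2% and 50.5% for the 14 dpi mean. C1s1 averaged 429 ± 71.3 in controls, 465 ± 122 in sham animals, 670 ± 105 at 3 dpi, 468 ± 104 at 14 dpi, 234 ± 58.2 at 30 dpi and 972 ± 543 at 100 dpi (SD, n = 3 each). H2-Ab1 was likewise highest at 100 dpi (613 ± 280) and lowest at 30 dpi (167 ± 19.97), against 339 ± 120 in controls. Gpx7 averaged 325 ± 44.0 at 100 dpi, against 193 ± 7.27 at 30 dpi and 350 ± 17.5 in controls, so 30 dpi stood apart. For Fmo1 it was 100 dpi that stood apart, with 4616 ± 803, against 2363 ± 358 at 30 dpi and 2323 ± 154 in controls. Tert at 100 dpi (286 ± 13.8) was below the means of all other groups, which ranged from 562 ± 78.1 in controls to 947 ± 219 at 14 dpi. Gys1 had its lowest mean at 100 dpi (2509 ± 356) and its highest at 30 dpi (4646 ± 771), above 3 dpi (3368 ± 653) and the other groups. The 30 and 100 dpi libraries differed from the other 12 as a whole: the row named Lars2 took between 6.91 and 11% of their reads, against 3.52 to 5.90% in the others. Time after injury and any shared handling of these 6 libraries cannot be told apart.

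**Figure D5:**
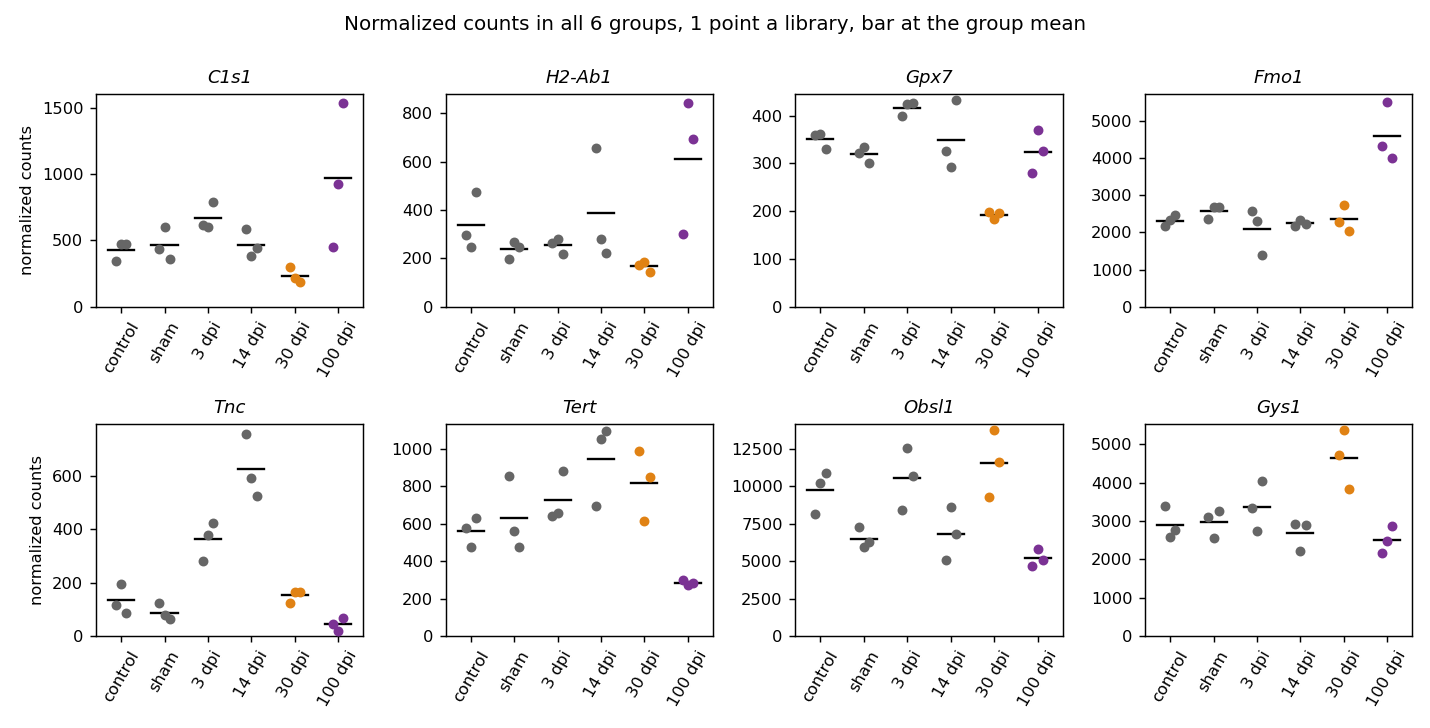
Normalized counts of 8 called genes in the 18 libraries, from control and sham through 3, 14, 30 and 100 dpi, with 1 point a library and a bar at the group mean. Tnc peaks at 14 dpi (624.5) and is lowest at 100 dpi (43.7), C1s1 and H2-Ab1 are lowest at 30 dpi, and Fmo1 stands apart at 100 dpi.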

How the data were processed

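Poly-A RNA of gecko ventricle was sequenced from 18 animals. Per the submitters' processing notes HISAT2 2.2.0, StringTie 2.2.1 and Salmon 1.8.0 were used, and transcripts were annotated with the mouse annotation. The deposited values are normalized counts, a signal in which the authors divided gene counts by a factor per library. How those factors were made is not given in the sources used here. Whole reads were recovered from the steps between low values (tolerance 0.001 read). The deposited FPKM table served as an alternative.

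Normalized counts were tested as log2(value + 1) with limma 3.58.1 in R 4.3.3 (trended variance), with the 18 libraries in 1 model and no covariate, as a contrast of 100 dpi minus 30 dpi, on rows with a mean of at least 10. P-values were adjusted by Benjamini-Hochberg over these rows, and a gene was called at an adjusted p under 0.05. A fold on this scale understates the change of low rows. SE is that of the fitted difference, and SD is over 3 animals. Alternatives were edgeR 4.0.16 and DESeq2 1.42.0 on recovered reads, other pseudocounts, filters, scalings and designs, a length correction, reads thinned to the smallest library, and each library left out. An exact permutation test of 3 against 3 cannot go below 0.1, so none was used. The limma step was tested on simulated data.

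Named genes were the 15 rows of smallest p in each direction, the called members of each list with its members of smallest p in each direction and of highest mean, and defining markers of immune, vascular and matrix lists. Which of these markers were shown was not set by rank, and Psmb8, Tap2, Csf1r, Itgb2, Tlr2, Nos3 and Tie1 entered in this way. Psmb8 and Tlr2 had the largest differences of their lists, so these markers do not stand for the other members. Names outside these are marked as chosen after their values were seen. Members and lists were chosen with earlier results of these data known. Some genes that the naming rule covers are not reported here.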

Additional observations from a re-analysis of the deposited data

How the results depend on the processing

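The 78 called genes kept their sign under every alternative in which they had a value, which at a minimum mean of 50 was 77. As the groups did not overlap for any called gene, leaving out a library or fitting the 2 groups alone could not change a sign. For those fits the kept sign tests nothing. The count of 78 stayed within 1.5 times under other pseudocounts, a minimum mean of 50, TMM factors, the FPKM table, library weights, thinned reads and edgeR. The genes called were not all the same. Of the 78, 62 stayed called with library weights, 65 with the FPKM table and 70 with thinned reads, and between 74 and 78 in the rest of these settings. Of the 30 higher calls, 19 stayed with library weights and 23 with the FPKM table. DESeq2 called 380 genes, 149 higher and 231 lower. Without a filter on low rows 18 genes were higher, and with the length trend removed 19 were. A fit of the 2 groups alone called 0 genes, 0 higher and 0 lower. With each library left out in turn, the total ranged from 0 to 359, the higher calls from 0 to 128 and the lower calls from 0 to 231. The cause was not tested.

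Same-numbered libraries deviated from their group means with correlations of -0.000677, 0.0278 and -0.0914. For libraries of different number the correlations ranged from -0.0808 to 0.0804. With 3 libraries a group, these values cannot decide whether the replicate numbers pair the libraries. With the replicate number as a block, 10 genes were called, 6 higher and 4 lower.

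Of the genes named but not called, some changed sign. Ttn was at 0.16 in the FPKM table and 0.0499 with the length trend removed, where Sparc was at -0.0689. With a library left out, Gata2 ranged from -0.26 to 0.69, Sparc from -0.0227 to 0.14, Cdk1 from -0.45 to 1.62, Il6st from -0.10 to 0.17, Hspg2 from -0.17 to 0.53, F8 from -0.0471 to 0.38, Myh6 from -0.20 to 0.0044 and Ebf1 from -0.049 to 0.56. At 3 animals a group and between 14198683 and 34898541 reads, rows of few counts, such as Mpo at 30 dpi, rest on few reads.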
